A study of Mus musculus with 8 samples.

Results

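Dicer1, Drosha, Dgcr8, Xpo5, Tarbp2 and Prkra encode the proteins that turn hairpin RNA into small regulatory RNA. They were chosen by name, as 6 of the 24498 genes in the deposited table, because the study delivered its knockdown as a hairpin. All 6 were found by symbol and all 6 averaged 10 or more normalized read counts over the libraries, as did 12681 genes in all. The study measured polyadenylated RNA from dissected dorsal hippocampus, taken from C57BL/6J males of 10 to 12 weeks. In the knockdown groups the region had received AAV2/9.U6.shACSS2.CMV.EGFP, an adeno-associated virus with a U6-driven hairpin against Acss2 and with EGFP, and the mice were either left in the home cage or trained. In the control groups, which the labels call WT, it had received AAV2/9.CMV.EGFP.polyA, with EGFP and no hairpin, again with home cage and trained mice. All mice therefore carried a virus and EGFP, but only the knockdown virus expressed a hairpin, so the hairpin and the loss of its target cannot be told apart in this design. Training came 3 weeks after injection and consisted of 3 trials of 6 min with 3 objects; trained mice were killed 30 min later. Each of the 4 groups had 2 libraries, and whether 1 mouse or a pool stands behind each library is not stated in the labels.

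In animals, most microRNAs begin as hairpins in longer nuclear transcripts. Drosha, a nuclear RNase III enzyme, cuts the hairpin free together with its RNA-binding partner Dgcr8, and this pair is called the Microprocessor. Exportin-5, the product of Xpo5, carries the hairpin to the cytoplasm, where the RNase III enzyme Dicer1 cuts it to a duplex with the help of the double-stranded RNA-binding proteins Tarbp2 (TRBP) and Prkra (PACT). One strand is then held by an argonaute protein. A hairpin transcribed from a U6 promoter resembles the Drosha product, so it enters the pathway at the export step and competes there with the cell's own microRNAs. The Microprocessor also cuts hairpins in the Dgcr8 messenger itself, a known feedback on its own supply.

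Those hairpins are shown here because they lie inside a measured member. In RefSeq (GRCm38.p6) the Mir1306 hairpin lies at chr16:18284239-18284317 on the minus strand, which is in the coding part of exon 2 of Dgcr8 in the GENCODE annotation. In its sequence the capitals mark the 2 mature arms.

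Mir1306 hairpin: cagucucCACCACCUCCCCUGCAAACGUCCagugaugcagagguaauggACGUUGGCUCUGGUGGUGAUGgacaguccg

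A second hairpin, which gives miR-3618, lies in the untranslated part of the same exon, and Mir693 lies within Xpo5 outside its exons. Together the 3 hairpins give 6 mature microRNAs with 6 distinct seeds. The seed, bases 2 to 8, is in capitals.

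mmu-miR-1306-5p: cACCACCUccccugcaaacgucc

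mmu-miR-1306-3p: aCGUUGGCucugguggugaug

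mmu-miR-3618-5p: uGUGAUUUccaauaauugaggc

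mmu-miR-3618-3p: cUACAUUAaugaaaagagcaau

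mmu-miR-693-5p: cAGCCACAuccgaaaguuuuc

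mmu-miR-693-3p: gCAGCUUUcagauguggcuguaa

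The table listed 0 reads for the entries Mir1306, Gm24572 (the miR-3618 hairpin) and Mir693 in every library. Mir1306 and Gm24572 lie wholly within a Dgcr8 exon on the same strand. A read there may have been counted as ambiguous, so 0 for these entries does not measure RNA from these stretches. Libraries of polyadenylated RNA do not measure mature microRNAs, so the levels below are those of the processing genes' messengers only.

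Depth was unequal. The untrained knockdown library KD.255 held 272456 reads in genes and the trained knockdown library KD.251 held 1484318, while the remaining 6 held from 6537749 to 9863728. Libraries are named here by the end of their column name. A normalized read count is a read count divided by the authors' size factor of that library. Each read therefore stood for 15.6 normalized counts in KD.255, for 2.88 in KD.251 and for 0.444 to 0.659 elsewhere. Acss2, the hairpin's target, had 25.0 (KD.253) and 15.6 (KD.255) normalized counts in untrained and 25.6 (KD.249) and 57.7 (KD.251) in trained knockdown libraries. Control libraries had 58.2 (eGFP.254) and 82.0 (eGFP.268) without training and 87.4 (eGFP.250) and 67.5 (eGFP.266) with it. The groups did not overlap, but the value in KD.251 (20 reads) came within 1 normalized count of a control library and that in KD.255 was 1 read. The log2 difference of Acss2 was -1.37 (SE 0.33) and did not pass limma over all genes (adjusted p = 0.333), while it passed without KD.251 (-1.67, adjusted p = 0.0436) and with DESeq2 (-1.27, adjusted p = 0.0144). Markers of pyramidal and granule neurons (Neurod6, Camk2a, Prox1, Calb1 and Slc17a7) were present in every library, with a summed level between 25077 and 31193 in knockdown and between 26907 and 35963 in control libraries. Camk2a, with a mean of 25519, made up most of this sum. Of the 5 markers 4 were lower and 1 was higher in knockdown libraries (median log2 difference -0.10) without passing limma, where 44.3% of all tested genes were higher. Choroid plexus markers (Ttr, Kl, Folr1, Clic6 and Kcne2) set 2 control libraries apart: their summed level was between 261 and 1907 in knockdown libraries, against 15582 in eGFP.254, 59447 in eGFP.250, 225 in eGFP.268 and 705 in eGFP.266. All 5 averaged lower in knockdown libraries (median log2 difference -2.01) without passing limma, and 2 were at 0 in KD.255. Leaving out eGFP.254 or eGFP.250 left 0 of the 6 processing genes passing limma for the vector averaged over training, as with all libraries. In these fits only 2 and 1 of all tested genes passed. This therefore cannot show whether choroid plexus content bears on the 6 genes, which was not tested.

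The 6 genes differed widely in level. Compared per kilobase of exon (GENCODE M21 basic annotation, since no source used here names the authors' gene models), Drosha stood highest with a mean of 208 normalized counts per kb over the 8 libraries. Dicer1 followed at 60.1, Xpo5 at 52.6, Dgcr8 at 31.4, Prkra at 16.4 and Tarbp2 at 14.3. Drosha exceeded Dicer1 in 8 of 8 libraries, by a ratio between 2.71 and 4.55, and Xpo5 exceeded Dgcr8 in 8 of 8. Dicer1 and Xpo5 were not separated in this order, with Dicer1 higher in 6 of 8 libraries. Prkra and Tarbp2, both partners of Dicer1, were not separated either, with Prkra higher in 5 of 8. Dgcr8 exceeded Prkra in 7 of 8 libraries, the exception being KD.255, in which the genes had 4 and 2 reads.

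**Figure D1:**
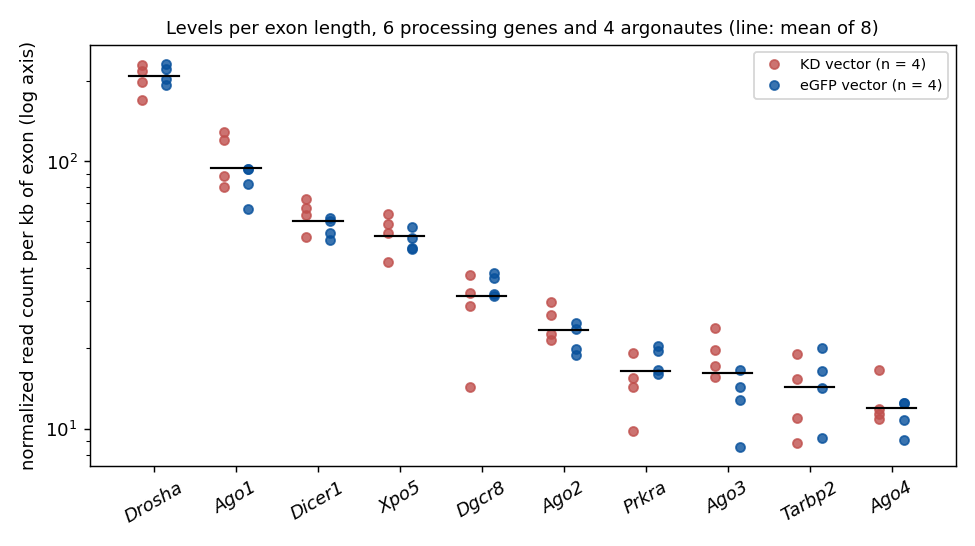
Normalized read count per kilobase of exon (log axis) of the 6 processing genes and the 4 argonaute genes; points are libraries, with the knockdown vector left of the control vector (n = 4 each), and lines are means of 8. Drosha is highest at 208 per kb, and the partners of Dicer1, Prkra and Tarbp2, are near the low end at 16.4 and 14.3.

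Within the pathway's working pairs, levels per kb were uneven. The Drosha messenger was 5.78 to 7.11 times that of its partner Dgcr8 in the 6 deep libraries. Of the Dgcr8 exon length, 19.1% is shared with Trmt2a on the opposite strand and 7.57% with Gm49776 on the same strand. For Drosha the shared part is 1.58%, with Gm47288. No source used here says how reads over these stretches were counted, so the Dgcr8 level per kb and this ratio may be off. The Dicer1 messenger was 2.77 to 6.85 times that of Prkra and 2.54 to 6.57 times that of Tarbp2 in these libraries. Of these 3 ratios that of Drosha to Dgcr8 had the narrowest range, and those of Dicer1 to its partners rested on few reads. Tarbp2 had between 29 and 56 reads and Prkra between 24 and 74 reads in a deep library.

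The first comparison asked whether the hairpin vector moved the machinery. None of the 6 genes was called between knockdown and control libraries averaged over training: limma passed 0 of 6 over all genes, and 0 of 6 had an unadjusted p under 0.05. edgeR, DESeq2 and limma-voom on the recovered reads also passed 0 of 6, each with 0 of 6 at an unadjusted p under 0.05. In the background limma passed 0.103% of all 12681 tested genes, edgeR 0.962%, DESeq2 1.54% and limma-voom 1.24%. With so few calls, and with Acss2 itself not passing limma, 0 of 6 does not show that the genes were unchanged; the intervals given for each gene say which differences the data allow. The median log2 difference of the 6 genes was -0.10, against -0.03 for all tested genes. Their groups overlapped in 6 of 6 genes, where 2.28% of all tested genes stood wholly higher and 1.98% wholly lower in knockdown libraries. These are levels in whole tissue, in which fewer cells of a type and less RNA per cell cannot be told apart.

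**Figure D2:**
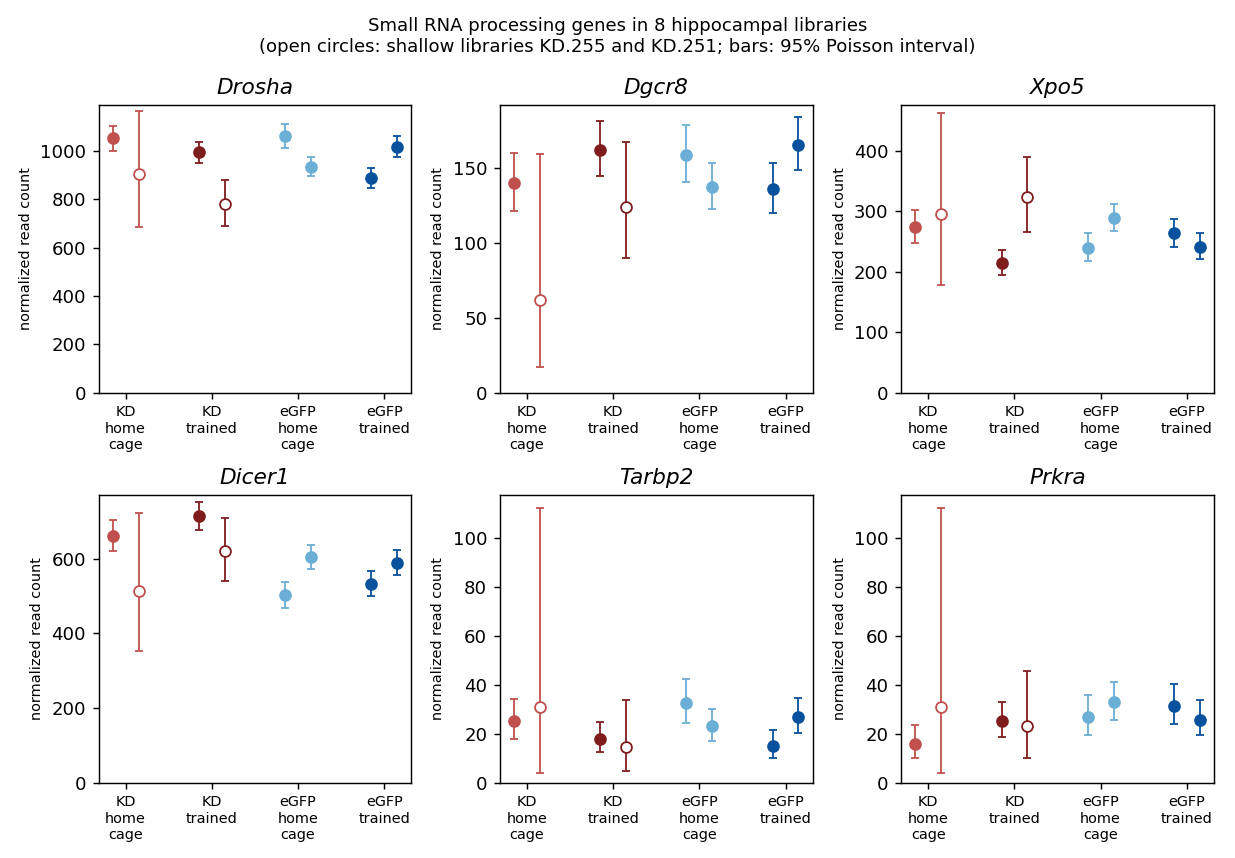
Normalized read count of each gene by library, with the knockdown (KD) groups left of the control (eGFP) groups; points are libraries, open for the shallow libraries KD.255 and KD.251, and bars are 95% Poisson intervals, which cover counting error only. Knockdown and control libraries overlap for all 6 genes, and the low Dgcr8 value of 62.2 in KD.255 has an interval that reaches 159.

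Drosha, the nuclear enzyme (chromosome 15, 12824815 to 12935291, plus strand), was the steadiest of the 6. It had 1051 (KD.253) and 902 (KD.255) normalized counts in untrained and 993 (KD.249) and 779 (KD.251) in trained knockdown libraries. Control libraries had 1060 (eGFP.254) and 933 (eGFP.268) without training and 886 (eGFP.250) and 1015 (eGFP.266) with it. The lowest library was KD.251 and the others lay among each other. The mean was 931 ± 118 with the knockdown vector against 973 ± 78.5 with the control vector (SD, n = 4 each). On the log2 scale they differed by -0.07 (SE 0.13). Its 95% interval, from -0.37 to 0.23, corresponds to a ratio between 0.777 and 1.17. Over the 6 deep libraries the SD of its log2 level was 0.10, and 3.19% of all tested genes had a smaller one (median of all 0.27), although the SD also falls with depth and 92.6% of tested genes had a lower mean.

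Dgcr8, the RNA-binding partner in the Microprocessor (chromosome 16, 18253948 to 18289246, minus strand), had 140 (KD.253) and 62.2 (KD.255) normalized counts in untrained and 162 (KD.249) and 124 (KD.251) in trained knockdown libraries. Control libraries had 159 (eGFP.254) and 137 (eGFP.268) without training and 136 (eGFP.250) and 166 (eGFP.266) with it. KD.255 alone was far below the rest. Its value was 4 reads, with an exact 95% Poisson interval from 17.0 to 159 normalized counts that takes in 3 of the 4 control values. The mean was 122 ± 42.9 with the knockdown vector and 149 ± 14.9 with the control vector (SD, n = 4 each), which gave a log2 difference of -0.37 (SE 0.26, 95% interval -0.96 to 0.22, limma adjusted p = 0.873). Without KD.255 the difference was -0.08, and without both shallow libraries it was 0.02. In untrained mice alone the difference was -0.66 (SE 0.37, adjusted p = 0.816). That value was -0.08 without KD.255 and -1.23 without KD.253, when the 4 reads of KD.255 stood alone for the group and the gene passed (adjusted p = 0.034) as 1 of 1279 genes among 12671.

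Dgcr8 also shares 825 bases, or 19.1% of its exon length, with exons of Trmt2a on the opposite strand. No source used here names the strand setting of the authors' counting, so reads of the pair may not have been told apart there.

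Xpo5, the export factor (chromosome 17, 46202782 to 46243598, plus strand), had 274 (KD.253) and 295 (KD.255) normalized counts in untrained and 214 (KD.249) and 323 (KD.251) in trained knockdown libraries. Control libraries had 240 (eGFP.254) and 288 (eGFP.268) without training and 263 (eGFP.250) and 241 (eGFP.266) with it. Both the highest and the lowest library carried the knockdown vector and had been trained. Knockdown libraries averaged 277 ± 46.4, against 258 ± 22.9 for control libraries (SD, n = 4 each). The log2 difference was 0.09 (SE 0.16), with an interval of the ratio from 0.827 to 1.36. Its sign depended on the shallow libraries, and without both it was -0.09.

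Dicer1, the cytoplasmic enzyme (chromosome 12, 104687742 to 104751952, minus strand), had 661 (KD.253) and 513 (KD.255) normalized counts in untrained and 713 (KD.249) and 620 (KD.251) in trained knockdown libraries. Control libraries had 502 (eGFP.254) and 605 (eGFP.268) without training and 533 (eGFP.250) and 589 (eGFP.266) with it. KD.249, KD.253 and KD.251 lay above all 4 control libraries, and KD.255, with 33 reads, lay among them. Knockdown libraries averaged 627 ± 84.7 and control libraries 557 ± 48.0 (SD, n = 4 each), which gave a log2 difference of 0.16 (SE 0.14, 95% interval -0.15 to 0.47, adjusted p = 0.873). Without both shallow libraries it was 0.31 (adjusted p = 0.532). In that set the groups did not overlap for Dicer1 (higher) or Prkra (lower), a state that 10% and 9.57% of all tested genes showed.

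Tarbp2 and Prkra, the double-stranded RNA-binding partners of Dicer1, were the least precise. Tarbp2 (chromosome 15, 102518192 to 102523676, plus strand) had 25.0 (KD.253) and 31.1 (KD.255) normalized counts in untrained and 17.9 (KD.249) and 14.4 (KD.251) in trained knockdown libraries. Control libraries had 32.6 (eGFP.254) and 23.1 (eGFP.268) without training and 15 (eGFP.250) and 26.8 (eGFP.266) with it. The log2 difference between the vectors was -0.14 (SE 0.34), and the interval of the ratio ran from 0.533 to 1.55.

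Prkra, which is also known as an activator of the interferon-induced kinase PKR (chromosome 2, 76629898 to 76648015, minus strand), had 15.8 (KD.253) and 31.1 (KD.255) normalized counts in untrained and 25.1 (KD.249) and 23.1 (KD.251) in trained knockdown libraries. Control libraries had 26.8 (eGFP.254) and 32.8 (eGFP.268) without training and 31.5 (eGFP.250) and 25.8 (eGFP.266) with it. In knockdown libraries 3 of 4 values lay below all controls, and the exception, KD.255, was 2 reads with an interval from 3.77 to 112. The log2 difference was -0.32 (SE 0.32, adjusted p = 0.878), with an interval of the ratio from 0.489 to 1.32. Without both shallow libraries it was -0.52 (adjusted p = 0.568). The interval of the ratio was wide for Prkra, Tarbp2 and Dgcr8, which reached down to 0.489, 0.533 and 0.515, and narrower for Drosha, Xpo5 and Dicer1, which reached down to 0.777, 0.827 and 0.903.

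Within each training state the vector comparison gave the same call. In untrained mice the log2 differences were -0.03 (SE 0.21) for Drosha, -0.66 for Dgcr8, 0.11 (SE 0.25) for Xpo5, 0.08 (SE 0.21) for Dicer1, 0.02 (SE 0.53) for Tarbp2 and -0.40 (SE 0.49) for Prkra. In trained mice they were -0.11 (SE 0.21) for Drosha, -0.08 (SE 0.37) for Dgcr8, 0.06 (SE 0.25) for Xpo5, 0.25 (SE 0.21) for Dicer1, -0.30 (SE 0.53) for Tarbp2 and -0.24 (SE 0.49) for Prkra. limma passed 0 of 6 in either state, with 0 of 6 at an unadjusted p under 0.05, beside 0% of all tested genes in untrained and 0.00789% in trained mice. edgeR, DESeq2 and limma-voom passed 0 of 6 as well, beside 0.181%, 0.434% and 0.00789% of all tested genes in untrained and 0.0315%, 0.26% and 0.00789% in trained mice. Dicer1 was wholly higher and Prkra wholly lower in trained knockdown than in trained control libraries, as were 14.4% and 14.8% of all tested genes.

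The second comparison asked whether spatial object training moved the machinery within 30 min. limma passed 0 of 6 genes for training averaged over the vectors, with 0 of 6 at an unadjusted p under 0.05, and edgeR, DESeq2 and limma-voom passed 0 of 6 too (0% of all tested genes by limma and edgeR, 0.0946% by DESeq2). Tarbp2 had the largest difference, -0.60 (SE 0.34, 95% interval -1.36 to 0.17, adjusted p = 0.873). Trained libraries had 17.9 and 14.4 with the knockdown vector and 15 and 26.8 with the control vector, against 25.0, 31.1, 32.6 and 23.1 in home cage libraries. The highest trained library, eGFP.266, lay above 2 of the 4 home cage libraries, so the groups overlapped, as they did for the other 5 genes. Of all tested genes 1.65% were wholly higher and 1.62% wholly lower after training. The other log2 differences were -0.11 (SE 0.13) for Drosha, 0.31 (SE 0.26) for Dgcr8, -0.09 (SE 0.16) for Xpo5, 0.11 (SE 0.14) for Dicer1 and 0.03 (SE 0.32) for Prkra. That of Dgcr8 was 0.02 without KD.255.

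Training was also set against home cage within each vector. In knockdown mice the log2 differences were -0.15 for Drosha, 0.60 for Dgcr8, -0.11 for Xpo5, 0.19 for Dicer1, -0.76 for Tarbp2 and 0.11 for Prkra (SE between 0.21 and 0.53). In control-vector mice, where all 4 libraries were deep, they were -0.07 for Drosha, 0.02 for Dgcr8, -0.06 for Xpo5, 0.02 for Dicer1, -0.43 for Tarbp2 and -0.05 for Prkra (same SEs). limma passed 0 of 6 in both vectors, with 0 of 6 at an unadjusted p under 0.05, and 0% of all tested genes. DESeq2 passed 0 of 6 beside 0.0315% of all tested genes in control-vector mice. In knockdown mice Tarbp2 was wholly lower after training, as were 14% of all tested genes. Its values in KD.255 and KD.251 were 2 and 5 reads, with Poisson intervals from 3.77 to 112 and from 4.68 to 33.7. These intervals overlap, so counting error alone could undo this order. The Dgcr8 value was 0.02 without KD.255 and 1.18 without KD.253. In the fit without KD.253, KD.255, with its 4 Dgcr8 reads, was the only untrained knockdown library.

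The third comparison, the difference between the training responses of the vectors, also passed 0 of 6 genes with limma, with 0 of 6 at an unadjusted p under 0.05 and 0% of all tested genes. The log2 values, knockdown minus control vector, were -0.08 (SE 0.29) for Drosha, 0.58 (SE 0.52) for Dgcr8, -0.05 (SE 0.35) for Xpo5, 0.17 (SE 0.30) for Dicer1, -0.33 (SE 0.75) for Tarbp2 and 0.16 (SE 0.70) for Prkra. The value of Dgcr8 was -0.00015 without KD.255. These comparisons share libraries and are not independent of each other.

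**Figure D3:**
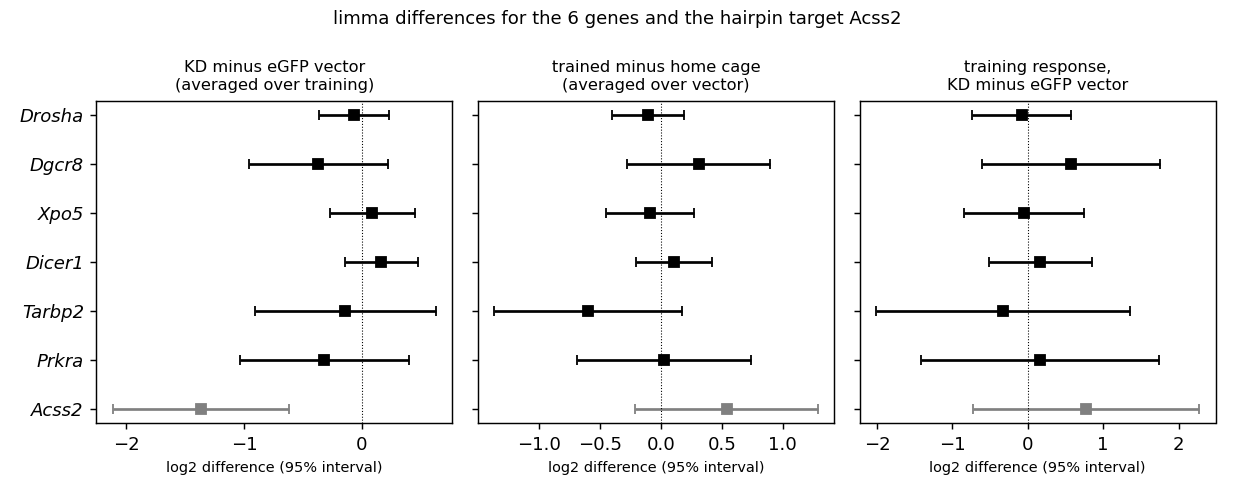
log2 differences with 95% intervals (limma) for the vector, for training and for the interaction, for the 6 genes and Acss2 (grey). All 18 intervals of the 6 genes include 0; those of Tarbp2, Prkra and Dgcr8 are the widest.

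The spread of the 6 genes between libraries was in most cases larger than counting error. Over the 6 deep libraries the chi-square per degree of freedom, which is near 1 when reads vary by counting alone, was 18.7 for Dicer1, 8.78 for Drosha, 5.70 for Xpo5, 3.17 for Tarbp2, 2.43 for Dgcr8 and 2.35 for Prkra. The median over all tested genes was 8.0. At equal relative spread this measure grows with the number of reads, so its order partly follows depth. The SD of log2 level over the same libraries, which falls with depth, gave another order. It was 0.39 for Tarbp2, 0.36 for Prkra, 0.19 for Dicer1, 0.15 for Xpo5, 0.13 for Dgcr8 and 0.10 for Drosha (median of all 0.27). By the root mean square distance of centred log2 levels over these libraries, the tested genes nearest in pattern were Birc6 for Dicer1 (0.030), Rgl1 for Drosha (0.026), Rpl19 for Dgcr8 (0.020), Dzip1 for Xpo5 (0.034), Gucy2e for Tarbp2 (0.063) and Ankra2 for Prkra (0.080). Among the 6 themselves the closest pair was Drosha and Dgcr8, at 0.10, and the farthest was Tarbp2 and Prkra, at 0.55. These distances describe 6 libraries and are small for genes that vary little.

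The argonaute genes, which encode the proteins that hold the finished small RNA, were higher in knockdown libraries in 4 of 4 members without passing, where 44.3% of all tested genes were higher. Ago3 had 245 (KD.253) and 373 (KD.255) normalized counts in untrained and 269 (KD.249) and 309 (KD.251) in trained knockdown libraries, against 134 (eGFP.254), 259 (eGFP.268), 201 (eGFP.250) and 223 (eGFP.266) in control libraries. Of the 4 knockdown values, 3 lay above all controls. The log2 difference was 0.57 (SE 0.22, unadjusted p = 0.030 and adjusted p = 0.848 by limma). Those of Ago1, Ago2 and Ago4 were 0.30 (SE 0.19), 0.20 (SE 0.16) and 0.17 (SE 0.21). Ago2, the member that can cut its target, averaged 347 ± 53.2 in knockdown libraries, against 301 ± 39.8 with the control vector (SD, n = 4 each). The list's median was 0.25. The value of Ago4 was 0.0031 without both shallow libraries, and -0.03 in trained mice alone, where 3 of 4 members were higher.

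Further lists of the pathway held 0 genes that passed limma. Silencing effectors, which shorten and degrade the messengers that argonautes bind, were higher in 13 of 16 members (median 0.10, against 44.3% higher and a median of -0.03 over all tested genes), from -0.19 for Pan2 to 0.42 for the deadenylase Cnot6l. Cofactors of the Microprocessor were higher in 5 of 12 members (median -0.05), with Khsrp at 0.17 and Hnrnpa1 at -1.56. Export and loading genes, among them Ran and the Hsp90 chaperones, were higher in 1 of 10 (median -0.12), from -0.27 for Fkbp4 to 0.19 for Xpo1. Genes of microRNA tailing and turnover were higher in 6 of 11 tested members (median 0.02), with Pnpt1 at 0.26 and Eri1 at -1.52. MicroRNA host transcripts were higher in 2 of 7 tested members (median -0.39), with C130071C03Rik at 0.63 and Mirg at -1.88. Hnrnpa1, Eri1 and Mirg each had 0 reads in KD.255, where 3 reads would have been 46.7 normalized counts, so these 3 values rest on that library's depth. edgeR likewise passed 0 genes of these lists.

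Genes that bind or sense double-stranded RNA held the genes of these lists that edgeR passed. In the list of 18 tested genes, 14 were higher in knockdown libraries (median 0.16), as were 44.3% of all tested genes (median -0.03). Of the list limma passed 0 and edgeR passed 5, all higher, beside 0.962% of all tested genes called by edgeR. The list was chosen with earlier results of these data known, so its shares describe these genes and are no test of the list. The log2 differences ran from -0.26 for Ilf2 to 3.62 for Oas1a (SE 0.91). The genes that edgeR passed were the RNA helicases Ifih1 (MDA5) and Ddx58 (RIG-I), the kinase Eif2ak2 (PKR), and the oligoadenylate synthetases Oas1a and Oas2. Oas1a and Oas2 averaged only 15.5 and 13.9 normalized counts over all libraries, near the filter of 10. A gene this low can reach that filter through its higher libraries alone, and each read in KD.255 stood for 15.6 normalized counts. The calls of Oas1a and Oas2 may therefore rest on few reads. Eif2ak2, the kinase that Prkra can activate, had 326 (KD.253) and 342 (KD.255) normalized counts in untrained and 471 (KD.249) and 75.0 (KD.251) in trained knockdown libraries, against 59.3 (eGFP.254), 55.9 (eGFP.268), 79.1 (eGFP.250) and 79.9 (eGFP.266) in control libraries. In KD.251 it lay within the control range. Its log2 difference was 1.88 (SE 0.49, adjusted p = 0.397 by limma and 0.0184 by edgeR).

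Ifih1 differed by 2.32 (SE 0.47, adjusted p = 0.195 by limma and 0.00573 by edgeR), and Ddx58 by 2.36 (SE 0.60, adjusted p = 0.371 and 0.0102). With only the 6 libraries of the lower run of numbers, which hold 2 of the 4 controls, limma gave adjusted p = 0.983 for Eif2ak2 and Ddx58 and 0.891 for Ifih1. As limma did not pass these genes with all libraries either, this fit cannot show whether the edgeR calls depend on the run. The controls of that run were eGFP.254 and eGFP.250, the libraries with high choroid plexus markers, and all knockdown libraries belong to it. Among the controls, run of numbers and choroid plexus content therefore cannot be told apart. Genes of the same list that edit or carry double-stranded RNA lay near 0, among them Adar (0.02, SE 0.17), Adarb1 (-0.03), Stau1 (0.04) and Stau2 (0.01). The 6 processing genes lay between -0.37 and 0.16. The difference between the lists was not tested. Beside these sensors, 5 of 5 microglia markers averaged higher in knockdown libraries without passing limma, where 44.3% of all tested genes were higher. Their summed level was between 1082 and 1384 against 759 and 911 in control libraries, with 0 markers at 0. The summed level of the 5 astrocyte markers was between 7835 and 10867 against 6809 and 7594 (3 of 5 markers higher, 0 at 0). Gfap and Slc1a3, with means of 3099 and 3070, made up most of the astrocyte sum. Neither sum overlapped between the vectors, and of single tested genes 2.28% stood wholly higher. The 5 oligodendrocyte markers also averaged higher in 5 of 5 without passing, with summed levels between 14614 and 24748 against 9712 and 20949 that overlapped. Sums of the 5 endothelial markers, between 454 and 700 against 523 and 640, overlapped as well. So did those of the 5 inhibitory neuron markers, between 2580 and 4837 against 2847 and 4262. The part of these cell types, and of the choroid plexus, in the sensor genes' values was not tested.

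**Figure D4:**
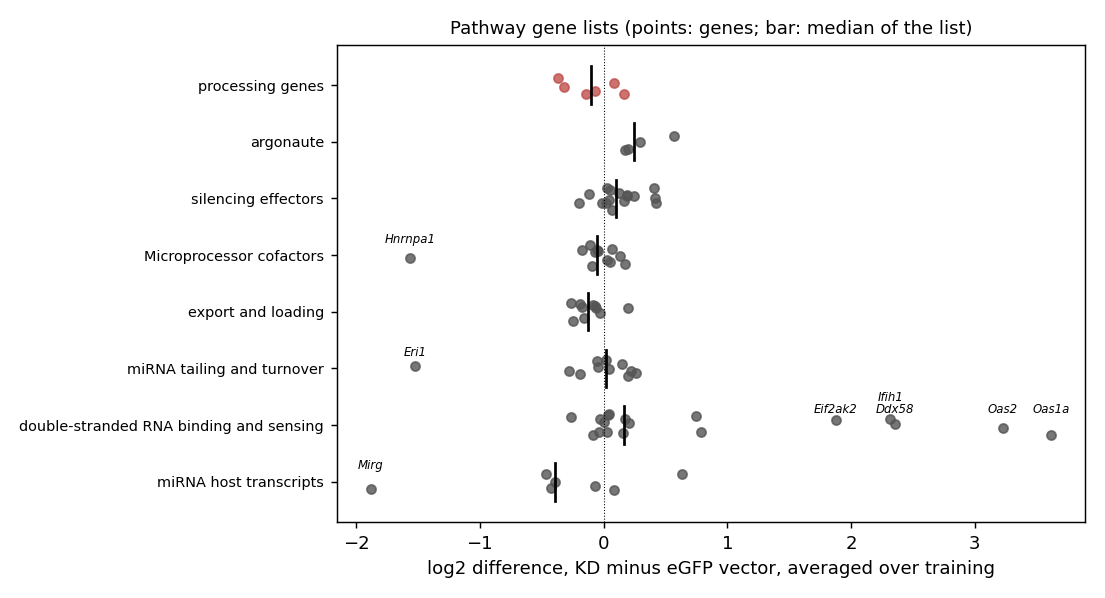
log2 difference of each tested gene, knockdown minus control vector averaged over training, by list; points are genes and bars are medians. The 6 processing genes lie between -0.37 and 0.16, while Eif2ak2, Ifih1, Ddx58, Oas2 and Oas1a lie above 1.8.

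Promoter stretches of the sensors are shown for the interferon-stimulated response element, a sequence through which interferon is known to act on genes. Its core was searched as GAAA repeated after a gap of 2 bases, with TTTC in the same spacing for the other strand. It was found in 0 of the 6 processing genes' RefSeq promoters (GRCm38.p6, from 250 bases before to 50 after the start of the gene). It was found in 5 of the 14 promoters available for the double-stranded RNA list and in 3.44% of all 32851 promoter windows. As that list was chosen with earlier results of these data known, the 2 shares are a description and no test. In these stretches the capitals mark the match, read along the gene's strand (minus for all 3). All 3 matches lie after the start of the gene, with their first base at 19 (Eif2ak2), 33 (Ifih1) and 3 (Ddx58) from it.

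Eif2ak2, chr17:78882535-78882564: agtccgccggGAAAACGAAAcagaagagaa

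Ifih1, chr2:62646206-62646233: gaagagaatcGAAACAGAAAccgatctg

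Ddx58, chr4:40239804-40239833: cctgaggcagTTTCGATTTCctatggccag

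The other promoters with a match were those of Oas1a and Oas3. A match in letters is a description and not a measured binding site, and no match says only that these letters are not in this window.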

How the data were processed

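The members and gene lists were chosen with earlier results of these data known. The build mm10 and the tools STAR 2.3.0, HTSeq 0.6.1, bcl2fastq 02.14.01.07, bedtools and DESeq come from the submitters' processing notes. Libraries were made with the ScriptSeq v2 kit and run on a NextSeq 500, per the labels' protocols. The table that the authors deposited holds 1 normalized signal for each gene in each library, a read count over a size factor. Of these values 100% were whole multiples of the library's smallest value (relative tolerance 1e-06), so reads were recovered; its 5 summary entries of the counter stayed out of totals and tests. Between 16.4% and 20.3% of a library's reads fell in no gene and between 0.379% and 0.424% were ambiguous. limma 3.58.1 (R 4.3.3), with its trend option, was run on log2(normalized count + 1) for all 12681 genes with a mean of at least 10, all 4 groups sharing 1 spread, with Benjamini-Hochberg adjustment over all tested genes and a threshold of 0.05. Fold changes on this scale understate the change of low genes. Averaged comparisons came from an additive model. edgeR 4.0.16, DESeq2 1.42.0 and limma-voom on recovered reads were alternatives. By rule all 6 genes were named in every comparison, together with all argonautes and, of each other list, genes that passed or else the highest and lowest; the nearest gene in pattern was named for each member; genes of the double-stranded RNA list beyond these were chosen after their values were seen. The model fits were tested on simulated data. P-values measure only how libraries vary, which may be technical. Libraries of 1 group always differed beyond counting noise (chi-square per degree of freedom between 2.16 and 36.0) and each counted as 1 sample. Poisson intervals (95%) and floors of 3 reads cover counting error only. The 95% intervals of log2 differences and of ratios come from limma and rest on the spread between libraries.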

Additional observations from a re-analysis of the deposited data

How the results depend on the processing

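No paired analysis was possible because the table's columns carry no replicate number of the labels. For the 6 genes, 42 results were recomputed 714 times: 638 values kept direction and call, 74 changed sign, and 2 changed call, both of Dgcr8 without KD.253. DESeq2 gave no adjusted p for 2 training values. Depth limits Dgcr8, Tarbp2 and Prkra, which had 4, 2 and 2 reads in KD.255. Fits with only the lower run of library numbers were chosen after seeing the data, and their only controls were eGFP.254 and eGFP.250.

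For the vector averaged over training, the 13 genes that limma passed became 122 with edgeR, 195 with DESeq2, 157 with limma-voom, 215 without both shallow knockdown libraries, 0 with the run of library numbers as a term and 0 with the lower run only (leave-one-out 1 to 102). In untrained mice 0 became 23 with edgeR, 55 with DESeq2, 1 with limma-voom, 1 with a pseudocount of 10 and 62 without the shallow libraries (leave-one-out 0 to 1279). In trained mice 1 became 4 with edgeR, 33 with DESeq2, 0 without the filter, 0 when scaled to reads in genes, 74 without the shallow libraries and 2 with the run as a term (leave-one-out 0 to 11). The 1 gene that limma passed in trained mice was higher with the knockdown vector, while the 2 with the run as a term were lower. DESeq2 passed 12 genes for training on average and 4 in control-vector mice, against 0. Leave-one-out counts ran from 0 to 1232 for training in knockdown mice and from 0 to 692 for the interaction. Acss2 (-1.37) passed at -1.27 with DESeq2, at -1.37 with limma-voom (adjusted p = 0.0334) and at -1.49 without the shallow libraries (adjusted p = 0.0128); leave-one-out gave -1.67 to -1.16.

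Signs turned as follows (log2 differences). Without both shallow libraries, the vector difference was 0.073 for Drosha, 0.016 for Dgcr8 and -0.089 for Xpo5 on average, 0.079 for Drosha and -0.13 for Tarbp2 in untrained mice, and 0.066 for Drosha, 0.11 for Dgcr8 and -0.23 for Xpo5 in trained mice. In untrained mice Drosha was 0.00075 with edgeR, 5.4e-05 with DESeq2, 0.032 with limma-voom and 0.0062 when scaled to reads in genes, and Tarbp2 was -0.081, -0.071 and -0.028 with edgeR, DESeq2 and limma-voom. In trained mice limma-voom gave 0.011 for Dgcr8 and -0.026 for Xpo5. With the lower run only, Tarbp2 was -0.22 in untrained mice, and Dgcr8 0.061, Xpo5 -0.0014 and Tarbp2 0.095 in trained mice. That fit gave training differences in control-vector mice of -0.22 for Dgcr8, 0.13 for Xpo5 and 0.23 for Prkra, and interactions of 0.11 for Drosha, 0.31 for Tarbp2 and -0.12 for Prkra.

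Leaving out 1 library at a time also turned signs. For the vector on average, Drosha ran from -0.13 to 0.0082, Xpo5 from -0.026 to 0.21 and Tarbp2 from -0.27 to 0.053. In untrained mice Dicer1 ran from -0.10 to 0.26, Drosha from -0.14 to 0.079, Xpo5 from -0.020 to 0.25, Tarbp2 from -0.22 to 0.27 and Prkra from -0.87 to 0.068. In trained mice Drosha ran from -0.28 to 0.066, Dgcr8 from -0.27 to 0.11, Xpo5 from -0.23 to 0.36 and Tarbp2 from -0.70 to 0.095. For training on average, Xpo5 ran from -0.20 to 0.037 and Prkra from -0.17 to 0.20. In control-vector mice Dicer1 ran from -0.11 to 0.16, Drosha from -0.17 to 0.030, Dgcr8 from -0.12 to 0.16, Xpo5 from -0.19 to 0.072 and Prkra from -0.19 to 0.090. In knockdown mice Drosha ran from -0.32 to 0.028, Xpo5 from -0.41 to 0.18 and Prkra from -0.36 to 0.58. For the interaction, Dicer1 ran from -0.015 to 0.35, Drosha from -0.25 to 0.10, Dgcr8 from -0.00015 to 1.15, Xpo5 from -0.35 to 0.24, Tarbp2 from -0.73 to 0.070 and Prkra from -0.31 to 0.63. The cause of these changes was not tested.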
